A study of Mus musculus with 22 samples.

Results

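RNA polymerase II (PolII) occupancy was followed from prometaphase into early-G1 in cells that kept CTCF, the insulator protein whose removal is the subject of the wider study. The regions described here are all peaks in the 2 prometaphase and 2 early-G1 peak lists of cells without auxin, merged wherever peaks overlapped by at least 1 bp, and they come from 4 of the 22 samples of the series. After merging there were 119258 regions, which took up 87.7 Mb in all and were 355 bp wide at the median. The lists held 3918 and 3221 peaks in prometaphase and 107213 and 103538 peaks in early-G1.

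All libraries were made from G1E-ER4, a single mouse erythroid precursor line that lacks endogenous GATA1 and carries a fusion of GATA1 with the estrogen receptor, and in which both CTCF alleles carry an auxin-inducible degron and mCherry, with the OsTiR adaptor of the degron expressed from a transgene. Cells were held in prometaphase with nocodazole at 200 ng/ml for 7 to 8.5 h. They were collected at 0 h as prometaphase cells or 60 min after nocodazole was washed out as early-G1 cells, both without auxin, and each population was purified by flow sorting on DNA content, with the mitotic phospho-epitope marking prometaphase cells and mCherry marking the cells that held CTCF. Each stage had 2 replicates, and each list was called against 1 input of its stage that all lists of that stage shared. The nocodazole arrest is common to both groups. A smaller share of cells with bound PolII and less PolII per cell cannot be told apart in such bulk libraries.

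During mitosis chromosomes condense, most transcription factors and PolII leave them, and transcription largely stops. As cells exit mitosis, PolII reassembles at promoters, escapes into gene bodies by pause release, and elongates to the ends of genes, so long genes need more time to be traversed than short ones. Histone, ribosomal protein and spliceosomal snRNA genes are among the most heavily transcribed loci of dividing cells, while genes of the mitotic machinery are normally transcribed before mitosis through promoters that carry CCAAT boxes and the cell-cycle element TTTGAA.

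The promoters of 9 genes on which the results below turn are shown as the 200 bases before the annotated TSS in mm9, read 5′ to 3′ on the strand of the gene. The first 2 belong to Srsf3 and Id1, which led the genes placed lower in early-G1, followed by Fam83d and Kif18b, which were placed lower and encode spindle proteins, and by Cenpf, the kinetochore gene whose peak was listed in prometaphase and not in early-G1. Rsbn1 and Smg5 were placed higher, and Rcl1 and Ppcdc had a peak in early-G1 and none in prometaphase. Fam83d, Kif18b and Cenpf were chosen for display after their values were seen. Capitals mark TATAAA lying 15 to 40 bases before the TSS, and, on either strand, the CCAAT box, the cell-cycle element TTTGAA and the GC box GGGCGG. On the opposite strand the CCAAT box reads ATTGG, the cell-cycle element reads TTCAAA and the GC box reads CCGCCC.
Srsf3, chr17:29169418-29169617, plus strand: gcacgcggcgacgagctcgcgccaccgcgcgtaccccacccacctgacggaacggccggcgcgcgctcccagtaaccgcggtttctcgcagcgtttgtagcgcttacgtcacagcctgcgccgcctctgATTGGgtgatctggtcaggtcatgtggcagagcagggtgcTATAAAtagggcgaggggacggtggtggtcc
Id1, chr2:152561787-152561986, plus strand: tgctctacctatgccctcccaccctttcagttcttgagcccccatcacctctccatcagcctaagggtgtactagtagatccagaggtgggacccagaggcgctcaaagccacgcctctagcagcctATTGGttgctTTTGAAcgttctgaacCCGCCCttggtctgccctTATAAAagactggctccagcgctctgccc
Fam83d, chr2:158593629-158593828, plus strand: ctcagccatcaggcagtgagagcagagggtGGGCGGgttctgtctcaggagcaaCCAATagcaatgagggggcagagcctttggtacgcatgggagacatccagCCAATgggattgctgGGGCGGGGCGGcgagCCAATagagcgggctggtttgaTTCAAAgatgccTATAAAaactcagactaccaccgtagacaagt
Kif18b, chr11:102786439-102786638, minus strand: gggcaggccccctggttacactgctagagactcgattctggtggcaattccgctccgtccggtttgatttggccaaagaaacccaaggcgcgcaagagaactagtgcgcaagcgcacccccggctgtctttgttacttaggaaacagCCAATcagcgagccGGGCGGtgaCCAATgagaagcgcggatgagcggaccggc
Cenpf, chr1:191511966-191512165, minus strand: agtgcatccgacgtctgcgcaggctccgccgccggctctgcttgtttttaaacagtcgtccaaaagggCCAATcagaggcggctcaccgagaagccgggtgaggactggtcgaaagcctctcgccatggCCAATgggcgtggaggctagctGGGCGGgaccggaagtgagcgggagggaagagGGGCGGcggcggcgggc
Rsbn1, chr3:103717843-103718042, plus strand: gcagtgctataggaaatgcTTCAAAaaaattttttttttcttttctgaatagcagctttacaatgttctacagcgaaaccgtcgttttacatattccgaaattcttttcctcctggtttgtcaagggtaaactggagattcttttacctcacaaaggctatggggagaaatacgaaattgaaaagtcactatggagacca
Smg5, chr3:88139982-88140181, plus strand: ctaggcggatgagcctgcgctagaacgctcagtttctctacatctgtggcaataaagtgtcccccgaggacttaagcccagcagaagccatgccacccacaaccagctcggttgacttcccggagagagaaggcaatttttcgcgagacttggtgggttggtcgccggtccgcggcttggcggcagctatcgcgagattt
Rcl1, chr19:29175665-29175864, plus strand: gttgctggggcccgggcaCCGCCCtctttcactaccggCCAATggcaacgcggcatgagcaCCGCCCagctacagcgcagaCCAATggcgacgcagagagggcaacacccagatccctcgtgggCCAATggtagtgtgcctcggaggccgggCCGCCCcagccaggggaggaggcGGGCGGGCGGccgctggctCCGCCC
Ppcdc, chr9:57287922-57288121, minus strand: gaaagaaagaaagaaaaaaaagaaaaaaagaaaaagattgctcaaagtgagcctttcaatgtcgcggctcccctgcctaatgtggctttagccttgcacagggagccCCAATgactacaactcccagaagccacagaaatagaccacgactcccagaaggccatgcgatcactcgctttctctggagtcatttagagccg

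Over all 22342 protein-coding promoters of this length, 2.35% held TATAAA at that distance, 30.4% held CCAAT, 10.97% held TTTGAA and 39.3% held GGGCGG. Srsf3, Id1 and Fam83d held TATAAA, at 31, 29 and 32 bases before the TSS, and Fam83d and Id1 held each of the 4 motifs. Cenpf and Kif18b held CCAAT and GGGCGG but no TTTGAA in this window. Rsbn1 held only TTTGAA, and Smg5 held none of the 4. Among the 676 genes with a TSS peak in both prometaphase libraries, 3.99% held TATAAA and 46.0% held CCAAT, against 0.416% and 33.0% of the 7217 genes with a TSS peak in both early-G1 and neither prometaphase library. TATAAA did not separate the directions, with 8.06% of the promoters of 62 genes placed higher and 9.09% of 55 placed lower. These shares describe letters in a window and no binding was measured there.

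The lists came from libraries of unequal depth. The relative depth recovered from each list was 4.94 and 5.95 reads per kb of genome in prometaphase and 8.15 and 11.8 in early-G1, and the weakest listed summit held 7 to 9 reads in each of the 4 libraries. A summit pileup, the number of extended reads over the peak's highest base, came out whole for 100% of peaks. After duplicate removal a base can hold at most 352 and 362 distinct reads in the early-G1 libraries and 336 and 322 in the prometaphase libraries. The highest summits reached 327 and 344 in early-G1 and 140 and 161 in prometaphase, so the strongest early-G1 summits lay near that limit. Of the 28 genes listed as erythroid progenitor regulators, 25 had a TSS peak in both early-G1 libraries, among them Gata2 (107 and 113 reads), Kit (110 and 130), Tal1 (127 and 168) and Epor (47 and 65). No member of the lymphoid, liver, neuron and muscle marker lists had one. Of 8 macrophage and granulocyte markers, only Cd68 was listed, in a region it shares with the translation factor gene Eif4a1. The maturation genes Hba-a1, Alas2 and Slc4a1 had no TSS peak.

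Within 60 min of release the number of PolII peaks was 29.5 times the prometaphase number and the bases they covered were 50.7 times as many. Prometaphase lists averaged 3570 ± 493 peaks (SD, n = 2) and 1.38 ± 0.214 Mb, and early-G1 lists averaged 105376 ± 2599 peaks and 70.0 ± 4.62 Mb. Median peak width was 257 and 255 bp in prometaphase and 332 and 361 bp in early-G1, and peaks wider than 5 kb numbered 3 and 1 in prometaphase against 1016 and 1344 in early-G1. The early-G1 values lay outside the prometaphase values for each of these measures. An exact two-sided permutation test gave p = 0.333 for each of them, the smallest value that 2 libraries against 2 allow. When only peaks that would have passed at a matched depth were kept, the early-G1 lists still held 74182 and 45326 peaks.

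The peaks also lay in other places. Coding TSSs held 26.7% and 28.7% of peaks in prometaphase and 8.18% and 8.47% in early-G1, whereas gene bodies away from a TSS held 37.2% and 36.3% in prometaphase and 74.0% and 73.9% in early-G1. Small RNA genes, which include the spliceosomal snRNAs and snoRNAs, held 1.74% and 2.17% of prometaphase peaks and 0.279% and 0.305% of early-G1 peaks. Intergenic peaks made up 14.4% and 14.1% against 7.87% and 7.94%, and peaks within 5 kb downstream of a gene 18.9% and 17.4% against 9.32% and 8.95%. In bases, gene bodies took 27.4% and 26.0% of the covered length in prometaphase and 64.9% and 65.4% in early-G1. The groups did not overlap in any class, and each exact permutation p was 0.333. When a peak within 250 bp of a TSS was counted as a TSS peak, the prometaphase shares were 41.1% and 44.5% and the early-G1 shares 9.54% and 9.77%. The difference was smaller in 2 other settings. At matched depth the early-G1 shares over a coding TSS were 11.6% and 18.4%. With peaks within 1 kb joined, the shares were 37.3% and 39.7% in prometaphase and 21.2% and 22.3% in early-G1.

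**Figure D1:**
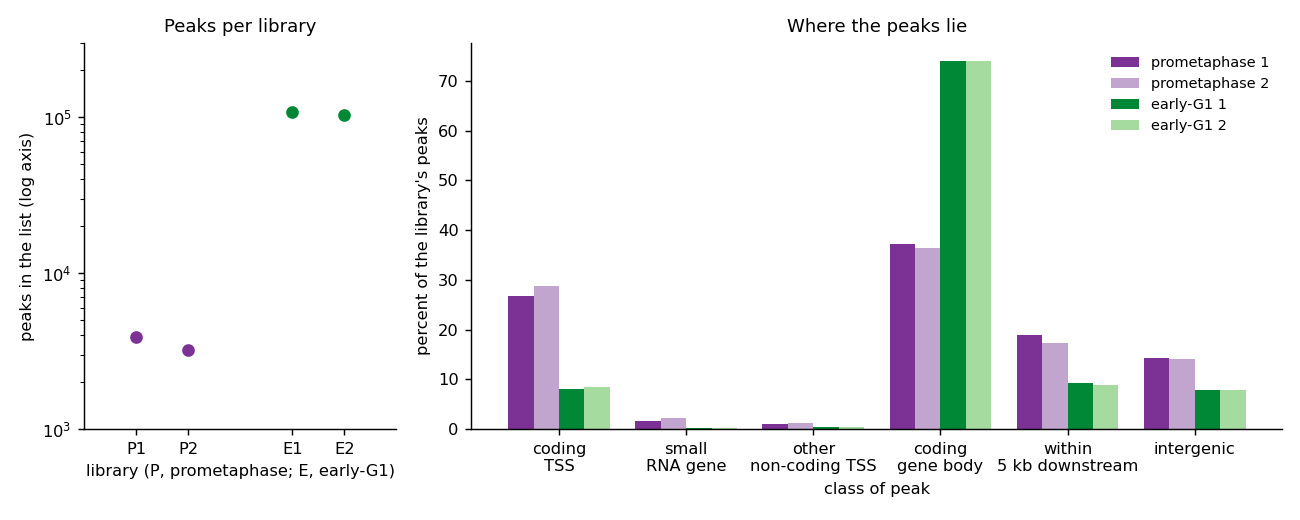
Number of peaks per library on a log axis (left, 1 point per library) and percent of each library's peaks in 6 classes (right, 1 bar per library). Prometaphase lists held 3918 and 3221 peaks with 26.7% and 28.7% over a coding TSS, and early-G1 lists 107213 and 103538 peaks with 74.0% and 73.9% in gene bodies.

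A part of the prometaphase peaks away from promoters lay at or near genes that also had a prometaphase TSS peak. Of 1457 and 1170 gene body peaks in the 2 prometaphase libraries, 35.6% and 36.5% lay in or within 5 kb of a gene with a TSS peak in both prometaphase libraries, as did 38.2% and 44.6% of the peaks within 5 kb downstream. Of intergenic peaks, 8.88% and 9.69% did. The prometaphase genes with the most covered bodies were short ones. Peaks covered 97.1% and 91.9% of the body of Ndufb10, a subunit of respiratory complex I, 66.6% and 65.8% of the ribosomal protein gene Rpl12, 57.6% and 48.2% of Actb, and 46.8% and 46.3% of Gapdh. These genes were picked by their prometaphase values, and in early-G1 their bodies were covered by 71.1% or more in each library.

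Nearly all prometaphase peaks were found again. Of the prometaphase peaks, 96.0% to 98.2% overlapped a peak of each early-G1 list, while 48.7% of the peaks of replicate 1 overlapped one of replicate 2 and 61.3% the reverse. Conversely, 1.88% to 2.39% of early-G1 peaks overlapped a prometaphase peak. Early-G1 replicate 2 overlapped 73.7% of the peaks of replicate 1, and replicate 1 overlapped 68.6% of those of replicate 2. Among the merged regions, 55476 (46.5%) had a peak in both early-G1 libraries and in no prometaphase library, 60634 had a peak in 1 early-G1 library only, 1540 were in both early-G1 and 1 prometaphase library, and 1407 (1.18%) were in all 4. The remaining regions were 121 seen in 1 prometaphase library alone, 62 in 1 library of each stage, 11 in both prometaphase and 1 early-G1 library, and 7 in both prometaphase libraries and in neither early-G1 library.

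The regions present throughout were mainly promoters, and the regained ones were mainly gene bodies. Coding TSSs made up 76.0% of the 1407 regions in all 4 libraries and 11.8% of the 55476 regained regions, of which 70.2% were gene bodies. Read by class, 1070 of 8639 coding TSS regions listed in both early-G1 libraries (12.4%) were already in both prometaphase libraries. The share was 21.7% of 263 small RNA regions and 0.467% of 39437 gene body regions. Regained regions had a median width of 671 bp and regions in all 4 a median of 3341 bp. With peaks within 1 kb joined, the regained regions numbered 23420, and at matched depth 29847. Without early-G1 replicate 1, 100465 regions counted as regained, and without early-G1 replicate 2, 104140, since a peak in a single early-G1 list then sufficed.

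The strongest early-G1 regions were those that prometaphase cells already carried. Of the 100 regions placed first in early-G1, 100% had a peak in both prometaphase libraries, and of places 101 to 300, 92.5%. The share was 58% for places 301 to 1000, 20.2% for places 1001 to 3000, 4.14% for places 3001 to 10000 and 0.11% for places 10001 to 30000. The first region with no prometaphase peak held place 285. A place here is a rank within a list by fold enrichment at the summit, with 1 as the strongest. The prometaphase libraries were the shallower ones, and the part of depth in this gradient was not tested.

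**Figure D2:**
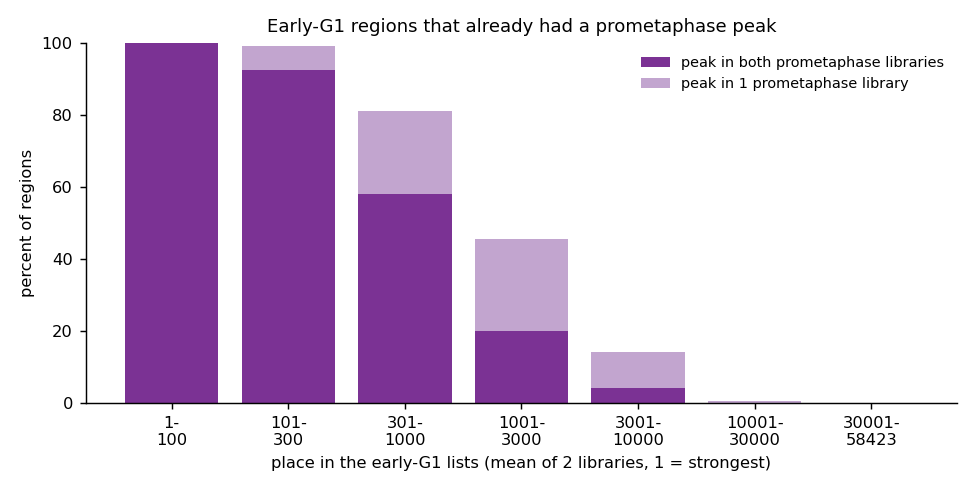
Percent of regions in both early-G1 lists (vertical axis) that had a peak in both (dark) or 1 (light) of the prometaphase libraries, by place in early-G1 from strongest at the left to weakest. The dark share goes from 100% in the first 100 places to 58% at places 301 to 1000 and 4.14% at places 3001 to 10000.

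Counted by gene, 676 of 22342 coding genes had a TSS peak in both prometaphase libraries (3.03%), 8635 had one in both early-G1 libraries (38.6%), and 7217 regained one, with a peak in both early-G1 and neither prometaphase library (32.3%). A further 744 genes had a peak in 1 prometaphase and both early-G1 libraries, and 13303 had none in any of the 4. With a peak within 250 bp counted, genes marked in both prometaphase libraries numbered 1080. In a single prometaphase library, 1114 genes (replicate 1) and 982 genes (replicate 2) were marked. The share of genes with an early-G1 TSS peak differed by gene length. These shares are over all coding genes of a length, including genes with no peak in any list and genes already marked in prometaphase. They do not measure recovery after mitosis. A TSS peak in both early-G1 libraries was found at 10.8% of 3315 genes shorter than 2 kb, 36.4% of genes of 2 to 10 kb, 49.7% of genes of 10 to 50 kb, 47.5% of genes of 50 to 150 kb and 24.6% of 1372 genes of at least 150 kb. The part of these genes that had already been marked in both prometaphase libraries was 19.6% in the shortest class, 10.96%, 7.11% and 4.08% in the next 3, and 2.37% in the longest. The absence of a TSS peak does not mean that PolII was absent. Of 1588 genes of at least 2 kb with more than 50% of the body covered in both early-G1 lists, 97 (6.11%) had no listed peak over a coding TSS in either list, and 85 of them had none in any of 13 lists, with a median gap of 4221 bp between the peaks on both sides of the TSS. They included Hspa5, Rpl3, Hnrnpa1, Hnrnpc and Pcna.

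Gene groups differed widely in the share of their genes with a TSS peak already listed in prometaphase. Beside the 3.03% of all coding genes, a TSS peak in both prometaphase libraries was present at 55 of 78 cytosolic ribosomal protein genes (70.5%), 38 of 56 replication-dependent histone genes (67.9%), 19 of 30 Srsf and Hnrnp genes of splicing control (63.3%), 9 of 17 snoRNA host genes (52.9%) and 15 of 40 immediate early genes (37.5%). The histone genes share regions, since they lie in clusters whose peaks merge, so these 38 genes fell in 21 tested regions. Mitotic machinery followed with 15 of 47 (31.9%). At the other end, 3 of 31 proteasome genes (9.68%), 3 of 33 genes of G1 cyclins, kinases and the E2F-Rb pathway (9.09%), 2 of 28 erythroid progenitor regulators (7.14%), none of 12 heme biosynthesis genes and none of 27 globin and maturation genes had one. In early-G1 most of these groups had a peak at the larger part of their genes. A peak in both early-G1 libraries was present at 71 ribosomal protein genes (91.0%), 43 mitotic genes (91.5%), 31 proteasome genes (100%), 36 of 36 ribosome biogenesis genes (100%), 47 of 49 genes of PolII subunits and general factors (95.9%), 11 heme biosynthesis genes (91.7%) and 25 erythroid regulators (89.3%), beside 38.6% of all coding genes. Immediate early genes (22 of 40, 55%), heat shock and chaperone genes (25 of 37, 67.6%) and globin and maturation genes (13 of 27, 48.1%) were less complete. The lists were chosen by function with earlier results of these data known, and these counts describe them without a test. Of all genes with an early-G1 TSS peak in both libraries, 7.81% had one in both prometaphase libraries. The groups also differed in median early-G1 place, with 46 for histone, 332 for ribosomal protein and 511 for splicing genes. It was 3670 for proteasome, 4000 for erythroid regulator, 4021 for mitotic and 4525 for G1 genes. The part of signal strength in the prometaphase counts was not tested.

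**Figure D3:**
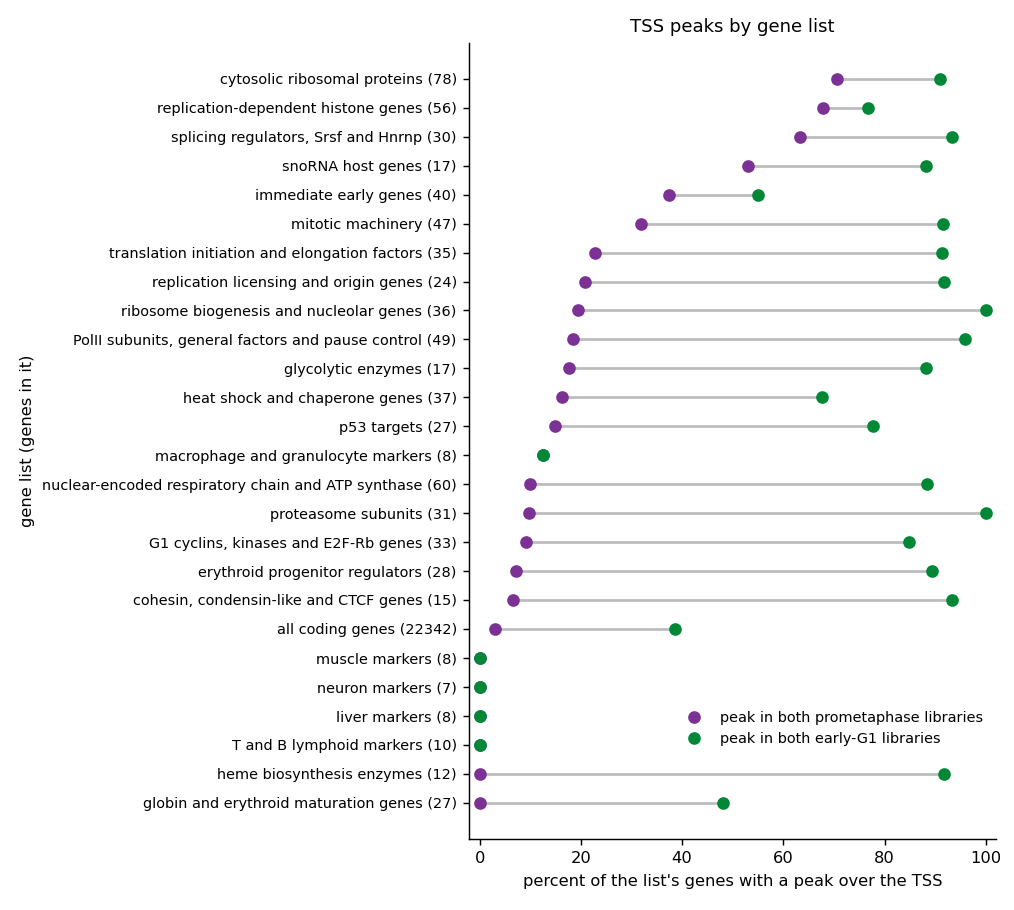
Percent of the genes of each list (horizontal axis, list size in brackets) with a TSS peak in both prometaphase libraries (purple) and in both early-G1 libraries (green), and a single green point where both coincide. Ribosomal protein genes went from 70.5% to 91.0%, proteasome genes from 9.68% to 100%, and heme biosynthesis genes from 0 to 91.7%.

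The regained genes of these groups spanned housekeeping and lineage functions. In the G1 list 23 of 33 genes (69.7%) regained a TSS peak, beside 32.3% of all coding genes, among them Cdk2 (117 and 141 reads at the summit in early-G1), E2f3 (122 and 136), Cdk4 (82 and 138), Ccne2 (92 and 111) and Rb1 (49 and 47). The merged regions of Cdk4 and E2f3 did hold a prometaphase peak in both libraries, but not over the TSS, and so did that of Lyl1 below. Ccnd1, Cdkn1c, Cdkn2a, Cdkn2b and Cdkn2d had no peak in either stage. Of the erythroid progenitor regulators 21 (75%) regained one, from Lyl1 (133 and 127) to Fli1 (20 and 17). In the heme pathway 10 of 12 did so, led by Cpox (94 and 112) and Uros (115 and 136), and Alas2, the erythroid-specific first enzyme, was the gene without a peak. Of the proteasome genes 22 of 31 (71.0%) and of the respiratory chain genes 37 of 60 (61.7%) were regained. The 32.3% counts all coding genes, and 13303 of these had no TSS peak in any of the 4 libraries. Of the 8635 coding genes with a TSS peak in both early-G1 libraries, 7217 were regained. Among such genes the counts were 23 of 28 in the G1 list, 21 of 25 erythroid regulators and 10 of 11 heme genes. They were 22 of 31 proteasome and 37 of 53 respiratory chain genes. Cdc6, which loads the replicative helicase onto origins, had no prometaphase peak over its TSS, although 1 prometaphase library had a peak elsewhere in its region, and held 172 and 195 reads in early-G1.

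By the naming rule, the regained coding regions placed highest in early-G1 belonged to Tmem209, Rcl1, Mrps21, Ppp1r8, Mrpl45, Ppcdc, Zfp871, Mapk14, Wdr4 with Ndufv3, and Urgcp. Tmem209, which encodes a nuclear envelope protein, held 133 and 166 reads. Rcl1, a factor of pre-rRNA processing whose promoter with CCAAT and GGGCGG is shown above, held 128 and 171. The mitochondrial ribosomal protein genes Mrps21 and Mrpl45 held 142 and 158, and 123 and 163. Mapk14, the p38 kinase gene, held 136 and 141, and Ppcdc, of coenzyme A synthesis, 126 and 153. None of these regions had a peak in the 2 prometaphase control lists. In prometaphase cells with auxin, 5 of the 10 did have a weak one in 1 library, with 12 reads at Mrps21, 21 at Ppp1r8, 11 at Mrpl45, 13 at Zfp871 and 10 at the region of Wdr4 and Ndufv3. Away from coding TSSs, the highest regained regions were at Snord7, a snoRNA gene (chr11:83104375-83108107, 136 and 166 reads), an intergenic stretch at chr1:88382551-88386633 (157 and 172, with 9 and 14 reads in the prometaphase lists with auxin), a Y RNA annotation, A930006K02Rik, and an exon of Nup160 (117 and 129).

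In regions present at both stages, peaks over the TSS widened. Of the 674 genes with a TSS peak in all 4 libraries, 667 had the same TSS covered in each. At these, the median peak was 419 and 384 bp wide in prometaphase and 2519 and 3008 bp in early-G1. It reached 227 and 197 bp downstream of the TSS in prometaphase and 1256 and 1532 bp in early-G1, and the median summit held 19 and 19 reads against 124 and 150. No prometaphase peak reached more than 5 kb downstream, whereas 12.3% and 15.3% did in early-G1. The summit lay within 500 bp of the TSS at 96.3% and 97.9% of these genes in prometaphase and at 87.9% and 86.4% in early-G1. A peak ends where signal falls below the threshold of its library, and the part of depth in these widths was not tested.

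Peaks also covered more of gene bodies at 60 min. The 7675 genes of at least 2 kb described here were kept for a TSS peak in both early-G1 libraries, the stage where they are high, so the difference between stages is a description of these genes and not a test. In them the median share of the body covered by peaks was 0% in both prometaphase libraries and 11.6% and 13.5% in early-G1, and 91.7% and 93.5% of these genes had no body peak in prometaphase against 11.9% and 11.5% in early-G1. Genes with more than 50% of the body covered numbered 21 and 12 in prometaphase and 1417 and 1623 in early-G1. With only peaks that would have passed at a matched depth kept, the early-G1 medians were 8.38% and 6.57%. The kept peaks retained their full-depth widths, so this cover is not fully corrected for depth. Over the 2497 genes with no other coding gene overlapping or within 5 kb, the early-G1 medians with all peaks were 6.44% and 7.34%. The 460 genes that had a TSS peak in both prometaphase libraries had a median early-G1 body cover of 42.5% and 47.4%, against 10.3% and 12.2% for the other 7215.

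Along the longest genes, cover declined with distance from the TSS. In 280 genes of at least 150 kb with an early-G1 TSS peak, the first 50 kb was covered by 4.94% and 5.51% on average, the second 50 kb by 3.42% and 3.64%, and the stretch from 100 to 150 kb by 2.09% and 1.93%. The prometaphase values were 0.0402% and 0.0334% in the first 50 kb and 0.00438% and 0.00252% from 100 to 150 kb. Cover from 100 to 150 kb divided by cover from 50 to 100 kb was 0.612 and 0.531 in early-G1, and 0.878, 0.769 and 0.824 in mid-G1 and 0.859 and 0.776 in late-G1 cells without auxin, collected 120 and 240 min after release. The early-G1 ratios were below each later ratio, with means of 0.571 (n = 2) and 0.821 (n = 5) and an exact two-sided permutation p of 0.0952, the smallest that 2 libraries against 5 allow. The 280 genes were kept for a TSS peak in both early-G1 libraries and not in the later ones. The ratios therefore describe these genes, and the p cannot decide whether long genes in general differ between stages. Cover from 100 to 150 kb was itself not lower in early-G1, since the later lists held 0.545% to 1.92% there and 0.620% to 2.46% from 50 to 100 kb. Single long genes differed. Mbnl1, a splicing regulator gene of 155 kb, was covered by 82.5%, 96.9% and 92.8% from 0 to 50, 50 to 100 and 100 to 150 kb in replicate 1 and by 83.3%, 97.3% and 91.7% in replicate 2. In Prim2, which encodes a primase subunit, cover was 43.7%, 13.8% and 3.61% in replicate 1 and 51.0%, 16.2% and 2.05% in replicate 2. In the agouti gene it was 47.1%, 66.8% and 2.98%, and 55.2%, 67.3% and 3.15%. Arl15 and Cdc14a, the other long genes with the highest early-G1 places, had little cover, with 1.61%, 1.28% and 5.28% and with 3.47%, 0% and 0% in replicate 1. Genes that overlap these long genes were not separated from them.

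**Figure D4:**
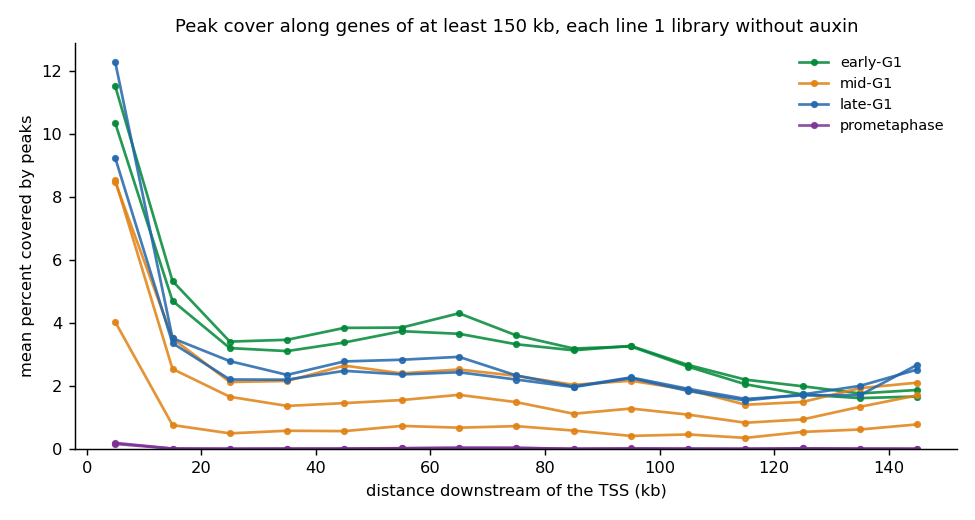
Mean percent of each 10 kb stretch covered by peaks (vertical axis) against distance downstream of the TSS in kb, over 280 genes of at least 150 kb, with 1 line per library without auxin. Both early-G1 lines lie above the mid- and late-G1 lines from 10 to 120 kb and lie among them beyond 130 kb, and the prometaphase lines stay near 0.

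To ask how places within the lists shifted, the 1407 regions present in all 4 libraries were ranked in each library by fold enrichment and the difference in −log2 of the place, early-G1 minus prometaphase, was tested with limma. A difference of 1 means a place number divided by 2, a stronger place in early-G1, and a rise or fall common to the whole list leaves places as they are. Places correlated between early-G1 replicates with a Spearman rho of 0.934, between prometaphase replicates with 0.717, and across stages with 0.545 to 0.575, over 1407 regions that share the same libraries. At a Benjamini-Hochberg adjusted p under 0.05, 93 regions were placed higher (6.61%) and 88 lower (6.25%), with a median absolute difference of 1.68 and a smallest adjusted p of 0.0211. In all 181 called regions the 2 groups of places did not overlap, as in 881 of the 1407 (62.6%). Without prometaphase replicate 1, and without prometaphase replicate 2, no region was called by limma, with 825 and 1026 regions at an unadjusted p under 0.05 and smallest adjusted p of 0.0523 and 0.0531, so that the calls rest on both prometaphase libraries. Without early-G1 replicate 1 there were 42 higher and 59 lower calls, and without early-G1 replicate 2 there were 39 and 56, and in each of these 4 fits the lone library of a stage was assumed to vary like the other stage.

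The balance of the 2 directions depended on the scale. By place 51.4% of calls were higher. By log2 fold enrichment centred on the median there were 54 higher and 313 lower calls (14.7% higher), by rank among all regions of a library 111 and 397 (21.9%), and by a normal score of the rank 28 and 78 (26.4%), and the first 2 of these scales shifted the median region by −0.15 and −0.52. All 88 lower calls were also called lower by fold enrichment, and 45 of the 93 higher calls were also called higher. Of the 93, 13 had the opposite sign by fold enrichment and 2 of these were called lower. In early-G1, 163 and 266 of the regions exceeded 50% of the reads a base can hold after duplicate removal, and no prometaphase region did. Of the 93 higher calls 31 and 54 were among them, and of the 88 lower calls 14 and 17. With pileups corrected for that limit, fold enrichment gave 74 higher and 273 lower calls (21.3% higher), with a median shift of −0.13.

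By class, 79 coding TSS regions of 1070 were placed higher (7.38%) and 59 lower (5.51%), beside 6.61% and 6.25% of all 1407 regions. The counts were 4 and 5 of 57 small RNA regions (7.02% and 8.77%) and 9 and 11 of 184 gene body regions (4.89% and 5.98%). Of 51 intergenic regions none was placed higher and 10 lower (19.6%).

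The top of the prometaphase lists was held by spliceosomal and nucleolar small RNA loci. The 10 regions without a coding TSS that had the best mean prometaphase place were all annotated as snRNA or snoRNA genes, of the U1, U2, U3, U5 and U6 families or numbered snRNA copies. Sequencing reads from repeated copies may be shared between them, so single copies are uncertain. A U5 locus at chr4:116861883-116864746 held 140 and 120 reads in prometaphase and 317 and 323 in early-G1, and held place 2 in both prometaphase lists and places 2 and 3 in early-G1. A U1 locus in an intron of Tex14 (chr11:87235398-87239026) held 105 and 111 reads and 327 and 342. It was placed higher (2.53 ± 0.43, SE, adjusted p = 0.0331 by limma), but its median-centred fold enrichment was lower (−1.11, adjusted p = 0.0054), and it lost the call with a mean-variance trend (adjusted p = 0.138). The snRNA locus AC120136.3 (chr1:72301077-72304351) held 120 and 107 reads, then 312 and 327, and had the greatest difference of the called regions (−6.49 ± 0.65, adjusted p = 0.0211). Its local background was 0.856 and 1.01 reads in prometaphase and 5.16 and 7.47 in early-G1, and by pileup alone its place did not pass the test (−0.16, adjusted p = 0.838).

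Among coding regions, the best prometaphase places were held by Tex14 (109 and 119 reads, then 321 and 331), Refbp2, Srsf3, Srsf7 (99 and 100, then 275 and 302), Zbtb37 with the snoRNA host Gas5 (101 and 101, then 285 and 322), Txnip (88 and 102, then 295 and 317), H3f3b, Rdm1, a Hist1h3c and Hist1h2bb region, and Mat2a. In the regions of Tex14, Refbp2 and Rdm1 the summit lay 578, 878 and 198 bp upstream of the coding TSS and the region held a U1, U5 or U2 annotation, so the signal cannot be assigned to the coding gene. Srsf7, Txnip and H3f3b, which encode a splicing factor, a regulator of glucose uptake and the replacement histone H3.3, held their summits 23, 52 and 62 bp from the TSS and stayed within the first 40 places at both stages. Their differences did not pass the test (0.24, −1.02 and 0.67, with adjusted p of 0.595, 0.11 and 0.122 by limma).

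The coding regions placed higher by the greatest differences were 6 without and 4 with histone genes. Rsbn1, whose promoter is printed above, held 11 and 15 reads in prometaphase and 146 and 199 in early-G1, and its place among the 1407 went from 1137.5 and 1183 to 248 and 143 (2.62 ± 0.33, adjusted p = 0.0215 by limma). Pmf1, which encodes a kinetochore subunit, held 15 and 12 reads and then 165 and 193 (2.49 ± 0.31, adjusted p = 0.0215). The region of Tmem79 and Smg5, the latter a factor of nonsense-mediated decay, held 21 and 13 and then 185 and 210 (2.41 ± 0.49, adjusted p = 0.0435). Stmn1, which encodes a microtubule-destabilising protein, held 17 and 17 and then 181 and 216 (2.35 ± 0.22, adjusted p = 0.0211). Reads at the summit were more in early-G1 over the whole set, with medians of 15 and 16 in prometaphase and 104 and 127 in early-G1 over all 1407 regions. The distance between the groups of reads is thus not particular to these genes. Rsbn1, Pmf1 and Stmn1 were also called higher by fold enrichment (1.08, 0.90 and 0.73), while Smg5 was not (0.76, adjusted p = 0.0549 by limma). On the normal score Pmf1, Topors and Smg5 lost the call (adjusted p = 0.0551, 0.0553 and 0.114). Dnase2a (13 and 13, then 162 and 180) and Topors (17 and 14, then 171 and 197) completed the coding regions without histone genes, and the summit at Dnase2a lay 4638 bp downstream of the TSS in a region 16748 bp wide.

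The other 4 of the 10 coding regions placed highest by difference were histone loci, which supply histones during DNA replication. A region at chr13:23670800-23679313 with Hist1h4d held 55 and 49 reads in prometaphase and 290 and 317 in early-G1 (3.55 ± 0.45, adjusted p = 0.0215 by limma). This region was 8514 bp wide, and its early-G1 summit lay in an exon of Hist1h2be, 3686 bp downstream of the Hist1h4d TSS. Regions with Hist1h2ai (48 and 41, then 244 and 282), Hist3h2a (55 and 46, then 260 and 301) and Hist2h2ab (37 and 38, then 230 and 279) had differences of 2.49, 2.29 and 2.29. Of 21 histone regions tested, 7 were placed higher and none lower, beside 6.61% and 6.25% of all tested regions. This direction changed with the scale. By median-centred fold enrichment 20 of the 21 were below 0, 9 of them called lower and none higher, beside 313 and 54 of all 1407 regions. On the normal score none was called. By pileup place all 21 were above 0 and 9 were called higher, beside 103 of all 1407 regions. With the pileup corrected for the most reads a base can hold, 13 were above 0, 2 called higher and none lower. On that corrected scale 74 of all 1407 regions were called higher and 273 lower.

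**Figure D5:**
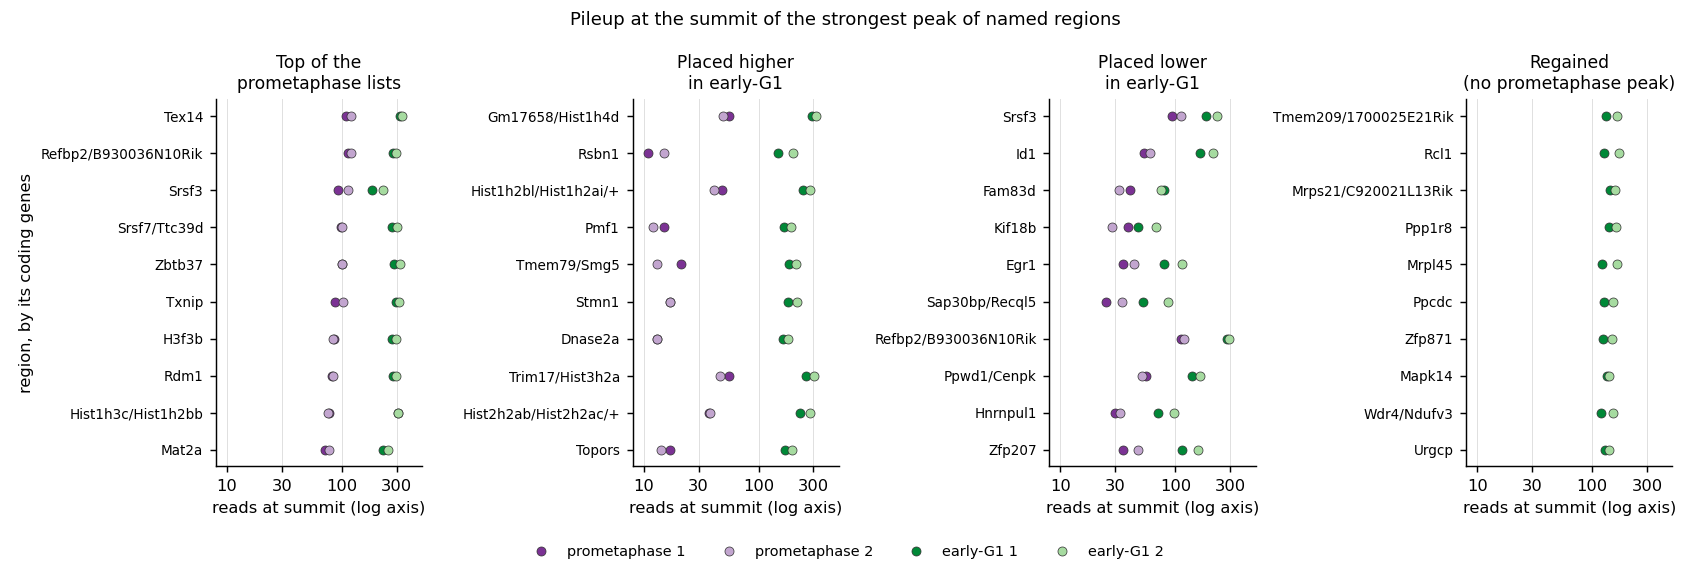
Reads at the summit (log axis) in each of the 4 libraries for 4 sets of 10 coding regions named by rule, 1 row per region. Regions placed higher held 11 to 55 reads in prometaphase and 146 to 317 in early-G1, and regions placed lower such as Kif18b held 39 and 28, then 47 and 68. The histone regions among those placed higher were not higher by median-centred fold enrichment.

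The coding regions placed lower by the greatest differences were led by Srsf3, Id1, Fam83d and Kif18b. Srsf3, a splicing factor gene with TATAAA and CCAAT in the promoter shown, held 93 and 113 reads in prometaphase and 183 and 229 in early-G1, and its place went from 18.5 and 4 to 112 and 85 (−3.50 ± 0.75, adjusted p = 0.049 by limma). Id1, an inhibitor of basic helix-loop-helix factors, held 53 and 60 and then 164 and 211 (−3.13 ± 0.26, adjusted p = 0.0211). Fam83d, which encodes a protein of the mitotic spindle, held 40 and 32 and then 80 and 75 (−2.91 ± 0.30, adjusted p = 0.0211). Kif18b, a kinesin gene of astral microtubules, held 39 and 28 and then 47 and 68 (−2.85 ± 0.36, adjusted p = 0.0215). Reads at the summit were more in early-G1 at each of these genes, but are not scaled for depth, which was 1.83 times higher in early-G1 on average, and at Kif18b the difference in reads was no greater than that. Egr1, an immediate early transcription factor, held 35 and 44 and then 80 and 115 (−2.73 ± 0.30, adjusted p = 0.0215). The other coding regions named by the rule were Sap30bp with Recql5, Refbp2, Ppwd1 with Cenpk, Hnrnpul1 and Zfp207, with differences from −2.65 to −2.37. Srsf3, Refbp2 and Ppwd1 lost the call on the normal score (adjusted p = 0.0906, 0.136 and 0.0558 by limma), and Srsf3 also where only regions with near summits were tested (0.0644).

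Of the 13 regions of mitotic machinery genes tested, 4 were placed lower and none higher, beside 6.25% and 6.61% of all tested regions. They were those of Kif20a, the kinesin of cytokinesis (31 and 40 reads, then 104 and 133, −1.94, adjusted p = 0.0284 by limma), the centrosomal kinase Nek2 (26 and 27, then 94 and 95, −1.83, adjusted p = 0.0215), the condensin subunit Ncapd2 (27 and 25, then 79 and 100, −2.01, adjusted p = 0.0215) and Cdc20, the activator of the anaphase-promoting complex (27 and 20, then 53 and 72, −1.92, adjusted p = 0.0355). Of the 13, 12 differences were below 0, with a median of −0.87, beside 0.01 over all 1407 regions. On the other scales 3 to 10 of the 13 were called lower, and the calls over all regions differed too. The normal score gave 3, beside 78 lower calls over all 1407 regions. Fold enrichment gave 7, beside 313, and rank among all regions of a library gave 10, beside 397. Top2a, which decatenates DNA, held 38 and 33, then 107 and 150 (−1.47, adjusted p = 0.0502). Mitotic genes without a prometaphase peak over the TSS included Ccnb1 (93 and 130 in early-G1, with prometaphase peaks elsewhere in its region), Birc5 (96 and 114) and Plk1 (16 and 20). In the promoters of the 47 genes of the list, 74.5% held CCAAT and 29.8% held TTTGAA, beside 30.4% and 10.97% of all coding promoters. These shares were not particular to the list. The 56 histone gene promoters held them at 85.7% and 26.8%, and the 78 ribosomal protein gene promoters at 28.2% and 6.41%. Promoters of genes placed higher held CCAAT and TTTGAA at 48.4% and 21.0%, and those of genes placed lower at 60% and 9.09%.

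Only 7 regions had a peak in both prometaphase lists and in neither early-G1 list, and 1 of them lay over a coding TSS. It belonged to Cenpf, which encodes a large kinetochore protein, with 25 and 31 reads at chr1:191511600-191512392 and a summit 33 bp upstream of the TSS. No peak lay within 2 kb of the Cenpf TSS in either early-G1 list. Side by side, prometaphase lists with auxin held 27 and 23 reads there, early-G1 lists with auxin no peak, mid-G1 control lists a peak of 15 reads in 1 of 3 libraries, and late-G1 control lists 24 and 42 reads. The other 6 regions were 170 to 275 bp wide and held 10 to 29 reads, inside Rasgrf1, Ptprm, Fabp5 and Tiam2 or between genes. Over single prometaphase libraries the number was larger, with 73 regions when prometaphase replicate 1 was left out, 62 without prometaphase replicate 2 and 18 without early-G1 replicate 2.

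Other groups moved in both directions or too little to be called. Of 55 ribosomal protein regions, Rpl4 and Rps13 were placed higher and Rpl23, Rpl37a, Rps19, Rps23 and Rps28 lower, beside 6.61% and 6.25% of all tested regions, with a median difference of 0.04. Rpl4 lost the call with a replicate block (adjusted p = 0.0725 by limma) and with a mean-variance trend (0.0671). Rpl4 and Rps13 both lost it by fold enrichment, normal score and pileup place. Rps20 held 56 and 64 reads in prometaphase and 228 and 266 in early-G1 (0.47, adjusted p = 0.303 by limma), and Rpl23 35 and 34, then 164 and 204 (−2.13, adjusted p = 0.0211). By pileup place Rpl23 did not pass the test (−0.10, adjusted p = 0.808 by limma). Of the 19 splicing regulator regions, Hnrnpab and Hnrnpk were placed higher and Srsf3, Srsf5 and Son lower. Of the 15 immediate early regions, Gadd45g (25 and 20, then 198 and 229, 2.12, adjusted p = 0.0215) and Myc (26 and 31, then 201 and 237, 1.59, adjusted p = 0.0284) were placed higher and Egr1 lower. Junb (52 and 54, then 220 and 248) and Fos (16 and 19, then 88 and 109) were not called (adjusted p = 0.813 and 0.185). Cdkn1a, the cell-cycle inhibitor and p53 target, held 35 and 31, then 218 and 247 (1.74, adjusted p = 0.0252). Polr2a, the gene of the largest PolII subunit, held 58 and 66, then 260 and 277 (1.53, adjusted p = 0.0276). Runx1, a transcription factor of blood progenitors, held 9 and 22, then 170 and 210 (1.45, adjusted p = 0.0283). On median-centred fold enrichment Gadd45g passed the test (0.53, adjusted p = 0.0488 by limma), whereas Myc (0.16), Cdkn1a (0.04) and Runx1 (0.31) did not, and Polr2a was below 0 (−0.47, adjusted p = 0.074). On that scale 54 of all 1407 regions were called higher and 313 lower. Of the 55 ribosomal protein regions none was called higher there and 12 lower. The counts were 0 and 7 of the 19 splicing regions, and 1 and 5 of the 15 immediate early regions. On the normal score the counts for these 3 groups were 0 and 1, 0 and 0, and 0 and 1, beside 28 and 78 over all regions. By pileup place they were 0 and 1, 1 and 4, and 3 and 1, beside 103 and 93.

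Away from coding TSSs, a pair of intergenic regions on chromosome 3 near the Hist2 cluster was placed lower. The region at chr3:96132884-96133949 held 98 and 78 reads in prometaphase and 116 and 136 in early-G1 (−4.49 ± 0.35, adjusted p = 0.0211 by limma), and the region at chr3:96287882-96289619 held 76 and 66, then 131 and 164 (−3.43 ± 0.29, adjusted p = 0.0211). Cells with auxin held 99 and 83, then 70 and 60 reads in the first, and 102 and 75, then 55 and 54 in the second. Both comparisons share the input of each stage, and the difference between them was not tested. The region without a coding TSS that was placed higher by the greatest difference, at chr13:21846381-21848256, was outside genes and lay 762 bp downstream of the Hist1h2bn TSS and held 53 and 52, then 273 and 297 reads (3.46 ± 0.22, adjusted p = 0.0211). By fold enrichment it was not called (0.26, adjusted p = 0.256 by limma).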

How the data were processed

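PolII ChIP-seq peak lists were used, 4 for the comparison (2 prometaphase and 2 early-G1 control libraries) and 9 more for values given side by side, of 18 lists and 22 samples. Mid- and late-G1 lists after auxin were not used. Per the study's methods and the submitters' processing notes, the authors aligned reads to mm9 with Bowtie2 2.2.9, removed duplicates, low-quality, mitochondrial and blacklisted reads (SAMtools 0.1.19, bedtools 2.27.1) and called peaks in each library separately with MACS2 2.1.0. The deposited lists give fold enrichment (a ratio of the summit pileup to local background), −log10 p and q at the summit, and a score, which was not used. The lowest deposited −log10 q was 2.01 to 2.10. Pileups and local background were recovered from the deposited fold enrichment and −log10 p, and counted as whole within 0.01. Reads at a summit were not scaled for depth, and read numbers cover counting error only.

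Peaks overlapping by at least 1 bp were merged. Genes were the 22342 coding genes of GENCODE vM1 on mm9, with 45993 TSSs, a gene body began 500 bp from the TSS, and body cover used genes of at least 2 kb. Library values were compared by an exact two-sided permutation test, whose smallest p is 0.333. Places (−log2 rank by fold enrichment of the strongest peak) in the 1407 regions of all 4 lists entered a limma fit (limma 3.58.1, R 4.3.3) with Benjamini-Hochberg adjustment over all of them at 0.05. The study describes the replicates as biological, and p-values measure only the spread between these samples. Other steps used Python 3.11.15, numpy 2.4.6, pandas 2.3.3, scipy 1.17.1 and matplotlib 3.10.9, and the limma step was tested on simulated data.

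The regions and gene lists were chosen with earlier results of these data known. Named were the 10 coding-TSS regions per direction with the greatest called difference and no overlap of groups, and 3 without a TSS; the 10 best prometaphase places, the 10 best regained regions and 5 without a TSS; regions only in prometaphase; list members at the extremes or detected in prometaphase; and the 5 long genes with the best TSS place. Promoters whose window holds an annotated exon, and that of Tex14, whose summit lies at a U1 gene, were passed over. Alternatives were a stricter q, matched depth, joined peaks, a 250 bp margin at the TSS, isolated genes, other rank scales, a replicate block and leaving out each library, and, chosen after seeing the data, places by pileup and pileups corrected for the most reads a base can hold.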

Additional observations from a re-analysis of the deposited data

How the results depend on the processing

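Of 115 alternative values, most of them counts, 94 stayed within 1.5 times the main count or on the same side of the test, and 21 moved. When each library was left out in turn, regions in both prometaphase and neither early-G1 library ranged from 7 to 73, regions placed higher from 0 to 42 and placed lower from 0 to 59, regained regions from 56015 to 104140 (beside 55476 with all 4 libraries), and genes with a TSS peak in every remaining prometaphase library from 676 to 1114. Regained regions numbered 29847 at matched depth and 23420 with peaks joined within 1 kb. Placed higher were 28 on the normal score and 54 by fold enrichment, and placed lower 313 by fold enrichment, 397 by rank among all regions and 273 with pileups corrected for the most reads a base can hold. With a 250 bp margin, 1080 genes had a TSS peak in both prometaphase libraries. The cause of these shifts was not tested, except that leaving out a library leaves fewer lists to pass. The labels do not say whether libraries with the same replicate number were prepared together. Deviations of same-numbered libraries in place correlated with 0.024 over 1407 regions, which cannot settle this, since places remove any shift common to a library. With a replicate block 102 regions were placed higher and 106 lower. With 2 libraries a stage, the permutation tests could not reach 0.05.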
